A study of Homo sapiens with 6 samples.

Results

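The genes described here encode the origin recognition and licensing factors: the 6 subunits of the origin recognition complex (*ORC1* to *ORC6*), the loading factors *CDC6* and *CDT1*, the CDT1 inhibitor geminin (*GMNN*) and the kinase *CDC7*. They were chosen by symbol, with earlier results of these data known, and all 10 were found among the 60480 gene identifiers counted. The data come from RNA-seq of OE-19 cells, an established line of adenocarcinoma of the esophagogastric junction (AEG). Poly(A) RNA was sequenced from 3 control libraries (shControl, named Puro in the count table) and 3 libraries of cells in which an shRNA reduced IGF2BP3 (IGF2BP3 KD). IGF2BP3 is an RNA-binding protein that reads m6A marks and is known to stabilize mRNAs, and the comparison asks which mRNAs differ when its level is reduced. Both groups were grown in the same medium. The labels name neither the hairpin nor separate cultures, so the libraries may share 1 hairpin and the p-values measure only the spread between these libraries.

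Libraries held 53424071 to 69989087 counts in total, and the members had between 793 and 4437 counts each. All 10 passed the low-count filter. Expression is given below as CPM, counts scaled to the size of the library, after TMM scaling, a correction for differences in library composition. A gene is called lower or higher when its Benjamini-Hochberg adjusted p over 19778 tested genes, from the quasi-likelihood test of edgeR, is under 0.05. *IGF2BP3* itself was at 108, 106 and 112 CPM in control replicates 1, 2 and 3 and at 14.4, 12.8 and 12.6 CPM in the IGF2BP3 KD replicates, which is 12.2% of control (log2 fold change -3.03, standard error 0.06). The epithelial markers *EPCAM*, *CDH1*, *KRT8*, *KRT18* and *KRT19* had at least 26738 counts in every library. Of the markers of other cell types, *CD3E* and *COL1A2* had 0 counts, *PTPRC* and *PECAM1* at most 8, and *COL1A1*, a fibroblast marker, 1200 to 1875. *COL1A1* was higher in IGF2BP3 KD cells (log2 fold change 0.50), and its part in the results was not tested.

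Origin licensing loads the MCM helicase onto DNA before S phase, so that each origin can fire only once per cell cycle. ORC binds the origin and recruits CDC6, and CDT1 then brings in the MCM2 to MCM7 ring. Geminin binds CDT1 and blocks further loading once S phase has begun, and CDC7, bound to its activator DBF4, phosphorylates the loaded helicase to start replication. Several of these genes, *CDC6*, *CDT1* and *ORC1* among them, are textbook targets of E2F transcription factors and are transcribed mainly around the G1-S transition.

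IGF2BP3 KD OE-19 cells had less mRNA of most licensing factors than control cells, with the largest falls in the inhibitor *GMNN*, the subunit *ORC4* and the loader *CDC6*. Of the 10 members, 7 were called lower (*GMNN*, *ORC4*, *CDC6*, *CDC7*, *CDT1*, *ORC6* and *ORC2*) and 0 were called higher. By the same rule, the background was 10.6% of tested genes lower and 9.87% higher. This background includes non-coding genes and genes with far fewer counts than the members, in which a change is harder to call. Because the members were chosen with earlier results of these data known, the excess over the background is no independent support. At an unadjusted p under 0.05, 8 members were lower and 0 higher, and DESeq2 also called 7 lower and 0 higher. In 8 members every IGF2BP3 KD value lay below every control value, a pattern seen in 17.8% of the tested genes. The median log2 fold change was -0.33 over the members and 0.01 over all tested genes. The 3 members without a call, *ORC1*, *ORC3* and *ORC5*, are all subunits of ORC.

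**Figure D1:**
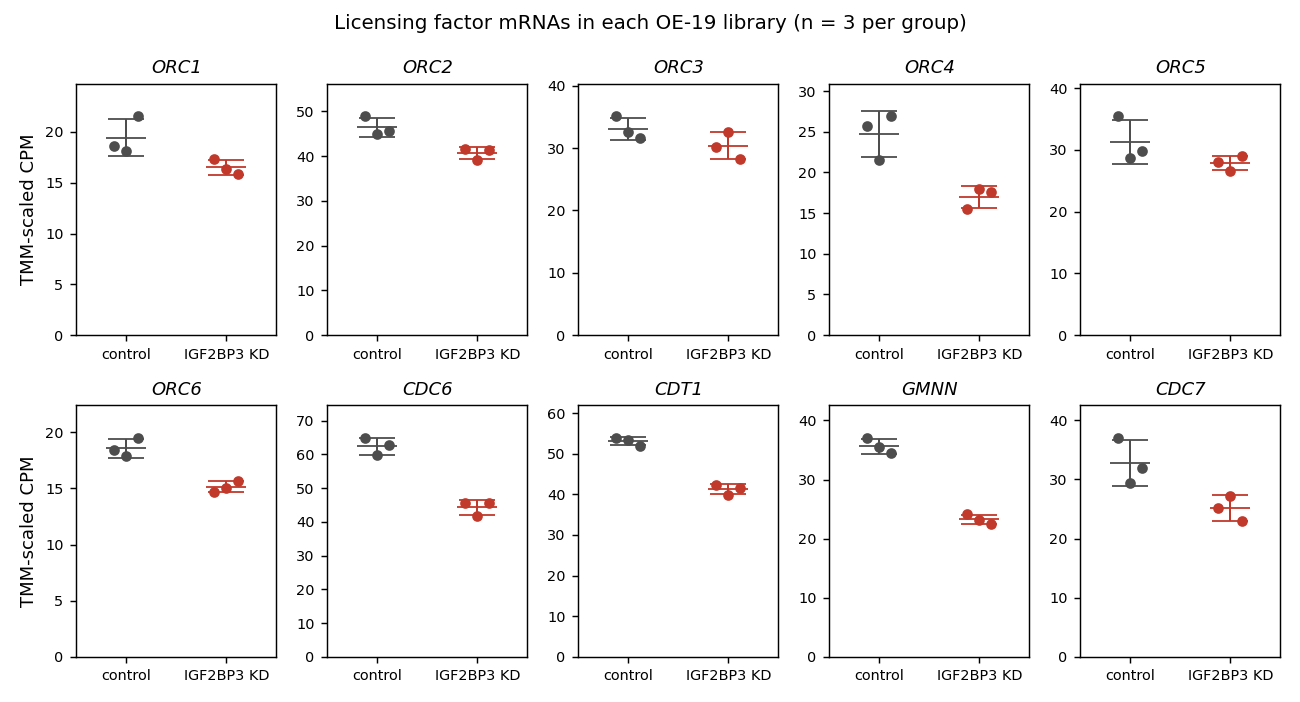
TMM-scaled CPM (y axis, from 0) of each of the 10 genes in control and IGF2BP3 KD libraries, with 1 point per library and the mean ± SD of 3 libraries. The groups are apart in every panel except *ORC3* and *ORC5*, and *GMNN* falls to 65.2% of its control mean.

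The promoters of 6 of the 10 members hold the letters of a shortened E2F site. This feature was not used to choose the genes and was searched for after their values were seen. As *CDC6*, *CDT1* and *ORC1* are among the textbook E2F targets, the matches are no independent result about the members. The search used the 4 words TTCCCGC or TTGGCGC or TTCGCGC or TTGCCGC on both strands, in RefSeq windows (GRCh38.p14) from 250 bases before to 50 bases after each annotated start. At least 1 word was found for *ORC1*, *ORC3*, *CDC6*, *CDT1*, *GMNN* and *CDC7*. The words were found for 24.2% of the 11026 tested coding genes with such a window, and in 13.0% of all 35116 windows. With 1 more T in front of each word, 5 of the 10 members matched, and 6.38% of the tested coding genes. *ORC1* had no match to these longer words. In the lines below, each written 5′ to 3′ on the strand of its gene, capitals mark the matches to the 4 shorter words. The stretches are chr17:40287860-40287919 (plus strand) for *CDC6*, chr16:88803733-88803792 (plus) for *CDT1*, chr6:24775307-24775366 (plus) for *GMNN*, chr1:91501035-91501094 (plus) for *CDC7*, chr1:52404411-52404470 (minus) for *ORC1* and chr6:87590096-87590155 (plus) for *ORC3*.
CDC6: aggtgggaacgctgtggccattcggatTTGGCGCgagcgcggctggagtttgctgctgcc
CDT1: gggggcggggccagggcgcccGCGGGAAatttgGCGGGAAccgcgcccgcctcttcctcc
GMNN: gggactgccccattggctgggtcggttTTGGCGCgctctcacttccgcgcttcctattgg
CDC7: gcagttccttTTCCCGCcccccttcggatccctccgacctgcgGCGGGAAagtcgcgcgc
ORC1: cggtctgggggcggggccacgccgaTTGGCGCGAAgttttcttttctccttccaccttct
ORC3: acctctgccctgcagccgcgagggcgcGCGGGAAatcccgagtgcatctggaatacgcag

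The capitals in the *ORC1* line are 2 overlapping matches, 1 on each strand, and *CDT1* and *CDC7* each show 2 separate matches. *GMNN*, *CDC7* and *ORC4* have 2 annotated starts each, and the stretch shown belongs to the second window of *GMNN* and *CDC7*. The first window of *GMNN* held no match, while that of *CDC7* held 2 more matches, which are not shown. Of the 6 members with a match, *CDC6*, *CDT1*, *GMNN* and *CDC7* were lower, while *ORC1* and *ORC3* were not called. Of the 4 without one, *ORC2*, *ORC4* and *ORC6* were lower and *ORC5* was not called. A second word, CCAAT, which names the box bound by NF-Y, was in the windows of 6 of the 10 members and of 42.9% of the tested coding genes. The word TTTGAA, the cell cycle homology region found in promoters of G2 and M phase genes, was in 0 of the 10 and in 14.0% of the tested coding genes. These are matches of letters, and binding was not measured.

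*GMNN* (ENSG00000112312, chromosome 6, 24774931 to 24786099, plus strand of hg38) had the largest fall of the 10. It was at 37.0, 35.4 and 34.5 CPM in control replicates 1, 2 and 3, and at 24.1, 23.2 and 22.4 CPM in IGF2BP3 KD replicates 1, 2 and 3. Every IGF2BP3 KD library was far below every control library, and the range within a group was 7.09% of the mean in control and 7.04% in IGF2BP3 KD cells. The group values were 35.6 ± 1.27 and 23.2 ± 0.819 CPM (SD, n = 3 each). The log2 fold change was -0.62 with an SE of 0.06 (edgeR adjusted p = 3.3e-05). A still lower log2 fold change was found for 5.72% of the tested genes. With each library left out in turn, *GMNN* was called lower in all 6 fits.

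CDC6 is the ATPase that joins ORC at the origin and closes the platform for helicase loading. *CDC6* (ENSG00000094804, chromosome 17, 40287879 to 40304657, plus strand) had 64.8, 59.8 and 62.8 CPM in the control libraries and 45.5, 41.8 and 45.6 CPM in the IGF2BP3 KD libraries. The groups did not overlap, and the fall left 70.9% of the control mean. Its log2 fold change was -0.50 with an SE of 0.05 (edgeR adjusted p = 7.9e-05).

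*CDT1* (ENSG00000167513, chromosome 16, 88803789 to 88809258, plus strand) encodes the factor that geminin inhibits. Its values were 53.8, 53.4 and 52.0 CPM in control cells and 42.4, 39.9 and 41.5 CPM in IGF2BP3 KD cells. The control libraries lay closer together than for any other member, with a range of 3.47% of their mean. The fall was smaller than that of *GMNN*, to 77.7% of the control mean, at a log2 fold change of -0.36 with an SE of 0.05 (edgeR adjusted p = 3.6e-04). *CDC6* and *CDT1* were called lower in all 6 fits that each left out 1 library.

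*CDC7* (ENSG00000097046, chromosome 1, 91500851 to 91525764, plus strand) showed the widest spread of the 10 among control libraries. It was at 37.0, 29.5 and 31.9 CPM in control cells and at 25.2, 27.3 and 22.9 CPM in IGF2BP3 KD cells. The lowest control library was still above the highest IGF2BP3 KD library. The log2 fold change was -0.38 with an SE of 0.09 (edgeR adjusted p = 0.0114). Without IGF2BP3 KD replicate 3 it was -0.32 and the call was lost (adjusted p = 0.0573). The other 5 such fits kept the call. Among these, the fall was smallest without control replicate 1, at -0.29 (edgeR adjusted p = 0.0407).

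**Figure D2:**
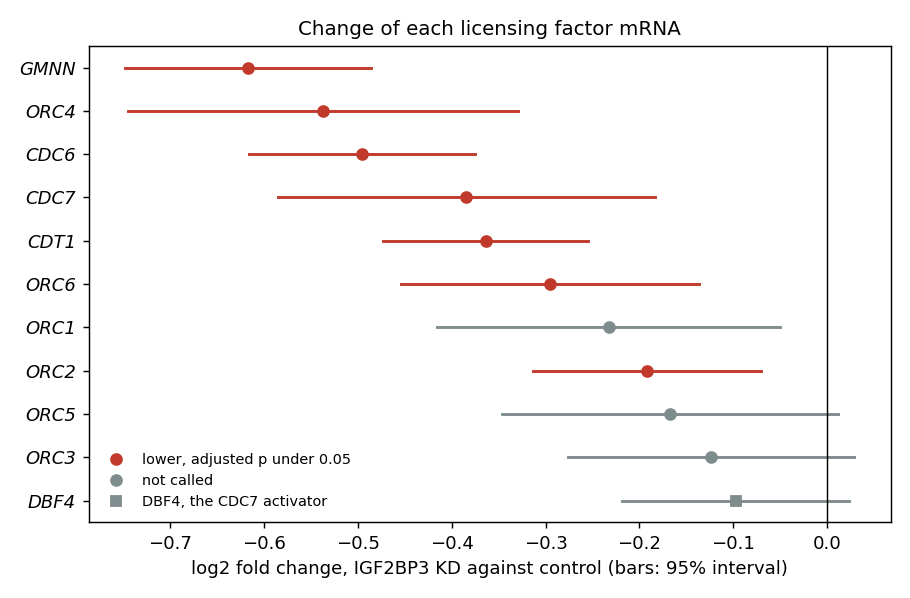
Log2 fold change of IGF2BP3 KD against control cells (x axis) for the 10 genes and for *DBF4*, with 95% intervals from edgeR's quasi-likelihood fit. All 10 lie below 0, from -0.62 for *GMNN* to -0.12 for *ORC3*, and the intervals of *ORC3*, *ORC5* and *DBF4* reach across 0.

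The ORC subunits ranged from the clear fall of *ORC4* to values of *ORC3* and *ORC5* that overlapped between the groups. Of the 6 subunits, 3 were called lower and their median log2 fold change was -0.21, while the 4 other members were all lower with a median of -0.44. This difference between the sets was not tested.

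*ORC4* (ENSG00000115947, chromosome 2, 147930396 to 148021604, minus strand) encodes an ATPase subunit of the complex. It had 25.7, 21.5 and 26.9 CPM in control cells and 15.5, 17.9 and 17.6 CPM in IGF2BP3 KD cells. Control replicate 2 was the lowest control library and still above all IGF2BP3 KD libraries. The mean went from 24.7 ± 2.85 to 17.0 ± 1.32 CPM (SD, n = 3 each), which is 68.9% of control, at a log2 fold change of -0.54 with an SE of 0.09 (edgeR adjusted p = 0.0019). The call was made in all 6 fits that each left out 1 library, with values from -0.63 to -0.48.

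The 3′ UTR of *ORC4*, at 5114 bases, was the longest of the 10 on the canonical GENCODE v44 transcripts (300 bases for *GMNN*). *ORC4* was the one member whose 3′ UTR held the 7-base word GATTACT, from base 196 of the 3′ UTR in exon 14. This site is shown because genes with the word are known, from earlier work on these same libraries, to be lower more often, so the shares below are no independent support. Among tested coding genes with a 3′ UTR of at least 50 bases, 7.80% held GATTACT, a share near that of the members. Of the 1071 with the word, 35.1% were called lower, against 12.7% of the 12659 without it. The genes with the word also had longer 3′ UTRs, with a median of 3477 against 1163 bases. The part of this word in the fall of *ORC4* was not tested. The site lies on the minus strand of hg38, chr2:147935296-147935325, with the word in capitals.
ORC4: tcactgattgaGATTACTttgtaagtagct

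The word ACACATC was in the 3′ UTR of 0 members and of 9.66% of the tested coding genes. Genes with ACACATC were higher more often (28.1% of those with it against 11.5% without). They also had longer 3′ UTRs, with a median of 3184 against 1139 bases. This word too was added after the data were seen, so its shares are no independent support. UGGAC, the motif named in the study for IGF2BP3 binding, was sought as TGGAC and occurred once each in the 3′ UTRs of *ORC4*, *ORC5* and *CDT1*. It was in the 3′ UTRs of 62.1% of the tested coding genes. Those genes had longer 3′ UTRs, with a median of 2033 bases against 517 without the word. The members' 3′ UTRs ran from 300 to 5114 bases, so their count and this share are not matched for length. *GMNN* and *CDC6*, with the largest falls beside *ORC4*, held none of these 3 words in that stretch. Only the 3′ UTR of the canonical transcript of each gene was searched. These too are matches of letters, and the part of any word in the falls was not tested.

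*ORC6* (ENSG00000091651, chromosome 16, 46689643 to 46698394, plus strand) encodes the smallest and most loosely bound subunit. It had 18.4, 17.9 and 19.5 CPM in control cells and 14.7, 15.1 and 15.7 CPM in IGF2BP3 KD cells. The groups did not overlap, and the log2 fold change was -0.30 with an SE of 0.07 (edgeR adjusted p = 0.0131). The call was lost without control replicate 3 (adjusted p = 0.0606) and without IGF2BP3 KD replicate 2 (adjusted p = 0.0516).

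*ORC2* (ENSG00000115942, chromosome 2, 200908977 to 200963680, minus strand), a core subunit, was at 48.9, 44.9 and 45.7 CPM in control cells and at 41.6, 39.2 and 41.3 CPM in IGF2BP3 KD cells. The groups did not overlap, but the fall was small, to 87.6% of control. Its log2 fold change was -0.19 with an SE of 0.06 (edgeR adjusted p = 0.0299). This call was the least stable of the 7. It was kept without control replicate 2 (adjusted p = 0.0379) and lost without control replicate 1 (0.0983), without control replicate 3 (0.0607) and without IGF2BP3 KD replicate 1 (0.0614), 2 (0.1005) or 3 (0.0646).

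*ORC1* (ENSG00000085840, chromosome 1, 52372829 to 52404423, minus strand) encodes the largest subunit, whose protein is removed after G1 in human cells. Its values were 18.6, 18.2 and 21.5 CPM in control cells and 17.4, 16.4 and 15.9 CPM in IGF2BP3 KD cells. All IGF2BP3 KD libraries were below all control libraries, but the fall did not pass the threshold. The log2 fold change was -0.23 with a 95% interval from -0.42 to -0.05, and edgeR's adjusted p was 0.0728 (0.0541 with DESeq2). *ORC1* was called in 0 of the 6 fits that left out a library.

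*ORC5* (ENSG00000164815, chromosome 7, 104126341 to 104208047, minus strand), another ATPase subunit, had 35.4, 28.7 and 29.9 CPM in control cells and 28.03, 26.7 and 29.0 CPM in IGF2BP3 KD cells. Control replicate 1 stood above the other 5 libraries, which overlapped. The log2 fold change was -0.17 (95% interval from -0.35 to 0.01), and it was -0.07 without control replicate 1. *ORC3* (ENSG00000135336, chromosome 6, 87590067 to 87667453, plus strand), a subunit that pairs with ORC2, had 35.1, 32.6 and 31.6 CPM in control cells and 30.2, 32.6 and 28.2 CPM in IGF2BP3 KD cells. The groups overlapped, and the log2 fold change of -0.12 (95% interval from -0.28 to 0.03) was the smallest of the 10 with all libraries. It was -0.08 without control replicate 1 and also -0.08 without IGF2BP3 KD replicate 3. Without control replicate 1 or IGF2BP3 KD replicate 2, the value of *ORC5* was the smaller one. For both genes the intervals leave room for no change and for a fall of the size measured in *ORC2*.

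Levels of different genes were compared as CPM per kilobase of annotated exon (all exons of a gene merged, GENCODE v44). In control cells *CDT1* was highest at 19.2 ± 0.351, followed by *GMNN* at 14.4 ± 0.514 and *CDC6* at 11.8 ± 0.477 CPM per kilobase (SD, n = 3 each). *CDC7*, *ORC5*, *ORC3* and *ORC2* came next, between 9.11 and 7.97, and neighbours among these 4 overlapped between libraries. *ORC1* at 6.23, *ORC6* at 4.31 and *ORC4* at 2.77 followed, each apart from the next. In IGF2BP3 KD cells *CDT1* (14.95), *GMNN* (9.39) and *CDC6* (8.34) were again the first 3 and *ORC4* (1.91) the last. Over the length of the canonical transcript instead, *GMNN* ranked first in control cells at 28.2 and *ORC6* ranked 6 in place of 9, so these places depend on the length used.

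Within the complex, *ORC4* made up 7.29%, 6.74% and 7.94% of the summed ORC level per kilobase in control libraries and 5.30%, 6.16% and 6.09% in IGF2BP3 KD libraries. Its share was lower in every IGF2BP3 KD library. The shares of the 5 other subunits overlapped between the groups. *ORC5* had the largest mean share, 22.2% ± 1.58 in control and 23.0% ± 0.997 in IGF2BP3 KD cells (SD, n = 3 each), but its values overlapped those of *ORC3*, which was above it in replicate 2 of both groups.

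Ratios of counts within a library compare factors that act on each other and need no scaling between libraries. The log2 ratio of *CDT1* to its inhibitor *GMNN* was 0.54, 0.59 and 0.59 in control libraries and 0.81, 0.78 and 0.89 in IGF2BP3 KD libraries. Inhibitor mRNA fell further than that of its target in every comparison of a KD with a control library, and the difference of the means was 0.25. The exact permutation test, two-sided, gave p = 0.1, the lowest that 3 against 3 libraries allow (0.15 adjusted over the 3 ratios tested). The log2 ratio of *CDC7* to *DBF4* was -0.33, -0.62 and -0.49 in control libraries and -0.81, -0.68 and -0.81 in IGF2BP3 KD libraries. It was lower in every IGF2BP3 KD library, by 0.28 between the means (exact permutation p = 0.1, adjusted 0.15). *DBF4* itself went from 45.6 ± 0.937 to 42.6 ± 2.17 CPM (SD, n = 3 each), a log2 fold change of -0.10 (95% interval from -0.22 to 0.02) that was not called. It shares 145 exonic bases with *SLC25A40* on the other strand, which was lower (log2 fold change -0.48). The log2 ratio of *ORC1* to *ORC2* overlapped between the groups, with means of -1.26 ± 0.157 and -1.30 ± 0.0679 (SD, n = 3 each, exact permutation p = 0.9, adjusted 0.9).

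**Figure D3:**
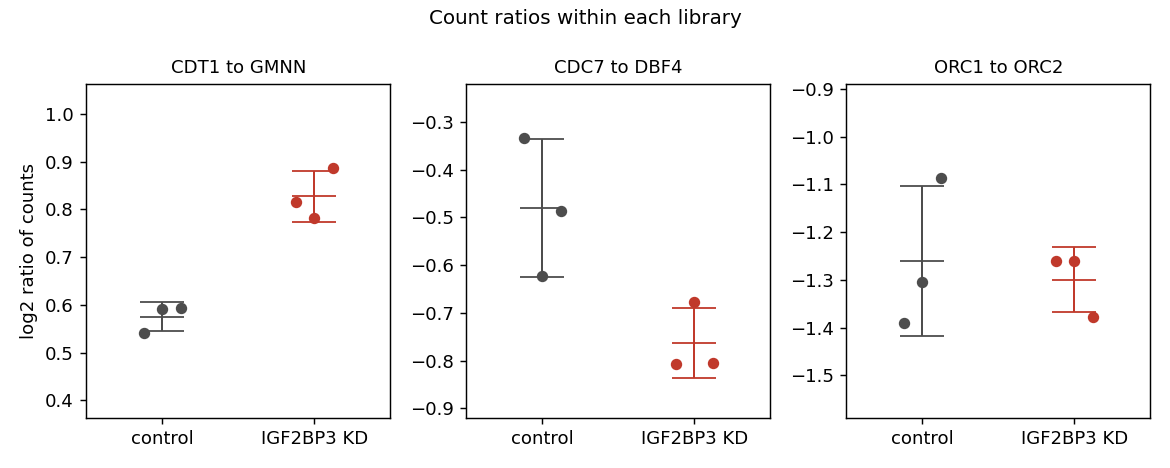
Log2 ratio of counts (y axis, a span of equal width in each panel) of *CDT1* to *GMNN*, *CDC7* to *DBF4* and *ORC1* to *ORC2*, with 1 point per library and the mean ± SD of 3 libraries per group. The IGF2BP3 KD points lie above the control points in the first panel, below them in the second, and among them in the third.

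Of 37 other genes of licensing and origin firing, also listed with earlier results of these data known, 36 were tested. In IGF2BP3 KD cells 24 of them were lower, 0 were higher and 12 were not called (26 lower and 0 higher with DESeq2), beside 10.6% of all tested genes lower. Their median log2 fold change was -0.35. All 6 genes of the MCM helicase, which the licensing factors load, were lower, most of all *MCM6*, at 60.9% of control (log2 fold change -0.72, standard error 0.04). Of the 11 genes that turn the loaded helicase into an active one (*CDC45*, the GINS subunits, *TOPBP1* and others), 10 were lower, all but *GINS2* (log2 fold change -0.05). *MCM10* had the largest fall among them, at -0.60 (standard error 0.06). Neither activator of CDC7, *DBF4* or *DBF4B*, was called. Of the 6 partners of ORC or of licensed chromatin, 4 were lower, with *KAT7*, a histone acetyltransferase that works with CDT1, at -0.35 (standard error 0.04). Of the 10 genes for the turnover of CDT1 and geminin, 4 were lower (*DTL*, *CUL4A*, *SKP2* and *USP37*) and 6 were not called. The largest change there was in *USP37*, a deubiquitinase, at -0.60 (standard error 0.10). The geminin relative *MCIDAS* was at 0.878 CPM in control and 1.28 CPM in IGF2BP3 KD cells and was not called, and *GMNC* had 0 counts in every library.

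**Figure D4:**
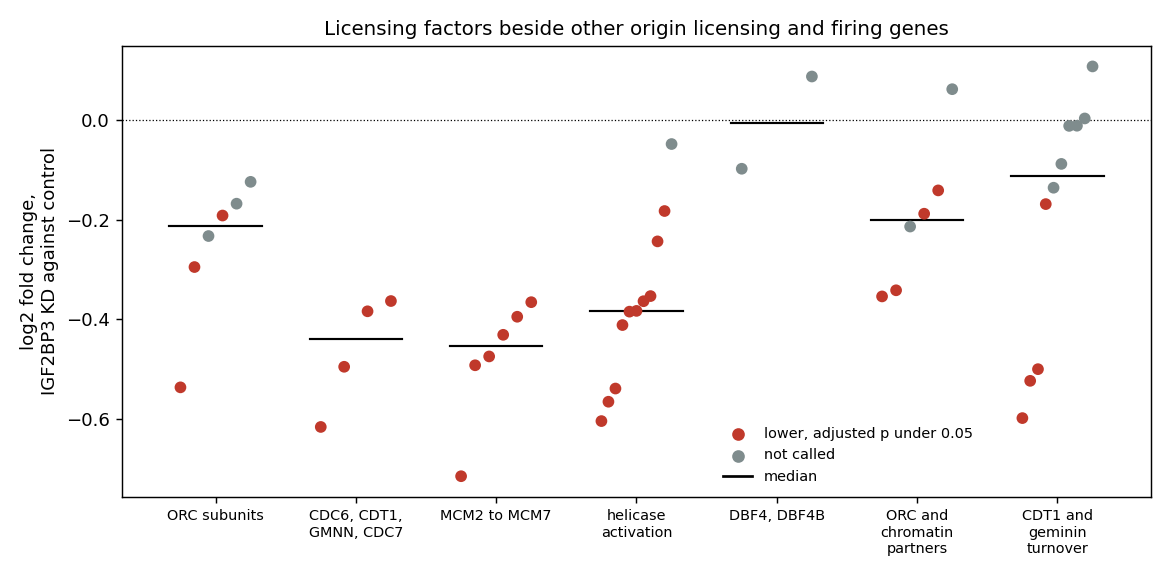
Log2 fold change (y axis) of each tested gene except *MCIDAS*, grouped by role, with 1 point per gene (red where called lower, grey where not called) and the median of each group as a line. The medians are -0.21 for ORC subunits, -0.44 for *CDC6*, *CDT1*, *GMNN* and *CDC7*, -0.45 for *MCM2* to *MCM7* and -0.38 for helicase activation, and *DBF4* and *DBF4B* lie to either side of 0.

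Genes that peak in S phase moved with these results. *GMNN* and *CDC6* belong to the S-phase list of the Seurat package, as do some of the pathway genes above, *MCM6* among them. Of its 41 other tested genes, 34 were lower (82.9%) and 1 was higher, beside 10.6% of all tested genes lower and 9.87% higher. Their summed level was 4301 to 4432 CPM in control libraries and 3354 to 3390 CPM in IGF2BP3 KD libraries. The G2/M list had 54 tested genes, 20 of them lower (37.0%, also above the share of all tested genes) and 1 higher. Its summed levels were 8475 to 8755 CPM in control and 7955 to 8060 CPM in IGF2BP3 KD libraries. The study reports, from flow cytometry, a reduced G1-S transition in OE-19 cells with IGF2BP3 KD. In bulk RNA, fewer cells in S phase and less of each mRNA per cell cannot be told apart. The part of the phase mix in the falls of the licensing factors was not tested.

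Of the members, 5 lie beside or across another gene. *ORC1*, *ORC3* and *ORC6* start 179, 39 and 125 bases from the coding genes *PRPF38A*, *RARS2* and *VPS35* on the opposite strand. None of these 3 neighbours was called, with log2 fold changes of 0.04, 0.14 and 0.08, and they share no exonic base with the members. *ORC4* shares 431 exonic bases with *ACVR2A* (log2 fold change -0.40, edgeR adjusted p = 0.0170) and 157 with *MBD5* (-0.20, not called), both on the other strand, the second with its start 593 bases away. These are 4.83% and 1.76% of its exonic bases. *ORC2* shares 256 with *AC005037.3*, which had at most 11 counts in any library. The libraries are stranded, but the strand setting of the counting is not given in the sources used here, so counts from shared bases are uncertain. *ORC5*, *CDC6*, *CDT1*, *GMNN* and *CDC7* share no exonic base with another annotated gene.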

How the data were processed

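RNA-seq of 6 OE-19 libraries was used, 3 control and 3 IGF2BP3 KD. The authors mapped paired reads to hg38 (hisat2, default settings). Gene counts from featureCounts were deposited as raw values. The processing notes also name fastp. Versions, annotation release and strand setting are not given in the sources used here.

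Each column was assigned to its library by name. The table lists 60480 identifiers. Of these, 44 appear more than once, and 132 repeated entries were left out. Pairs of libraries were compared by chi-square per degree of freedom (genes averaging 50 counts or more). It was 9.86 to 17.6 for pairs of 1 group and 46.3 to 58.2 otherwise, and none was a duplicate.

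The test was the quasi-likelihood test of edgeR 4.0.16 (R 4.3.3; glmQLFit, glmQLFTest, no block) on TMM-scaled counts, with factors of 0.992 to 1.01. Genes passed filterByExpr (min.count 10, min.total.count 15). Benjamini-Hochberg adjustment covered all 19778 genes, with a threshold of 0.05. The fit was first run on simulated counts with fewer changed genes than were called here. That run does not measure the accuracy of these calls. Ratios used counts plus 0.5 and a two-sided exact permutation test. Intervals come from the fit's t quantiles and standard errors.

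Positions, exons and 3′ UTRs come from GENCODE v44 (hg38), and promoter windows from RefSeq (GRCh38.p14), which hold all 10 members. Phase lists come from Seurat. Alternatives were DESeq2 1.42.0, RLE scaling, no filter, at least 10 counts in every library, a replicate block, each library left out in turn, and no pseudocount. The canonical transcript length, the promoter motifs and the 3′ UTR words were added after the data were seen. The genes named are the members, *IGF2BP3*, *DBF4*, the called gene with the largest change in each list of other pathway genes, and genes that share exonic bases with a member or start within 1000 bases of it on the opposite strand. Outside this rule, *DTL*, *CUL4A*, *SKP2*, *GINS2*, *DBF4B*, *MCIDAS* and *GMNC* are named to complete short counts, *CDC45* and *TOPBP1* to say what a list holds, and *SLC25A40* because it shares exonic bases with *DBF4*. These were chosen after their values were seen. Members and lists were chosen with earlier results of these data known. Other steps used Python 3.11.15 (scipy 1.17.1, pandas 2.3.3, numpy 2.4.6; plots, matplotlib 3.10.9).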

Additional observations from a re-analysis of the deposited data

How the results depend on the processing

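The same 7 members were lower, and 0 higher, with DESeq2, with RLE scaling, with the replicate block, without a filter and with a minimum of 10 counts in each library. With each library left out in turn, 5 to 7 members were lower and 0 higher, and 21 to 23 other pathway genes were lower. *GMNN*, *CDC6*, *CDT1* and *ORC4* were called in every fit, while *CDC7*, *ORC6* and *ORC2* lost the call in 1, 2 and 5 of these 6 fits. Every member kept a log2 fold change below 0 in every fit. Over all genes, 1641 to 1970 were lower and 1414 to 1741 higher with a library left out. The difference in the *ORC1* to *ORC2* ratio, -0.039, ranged from -0.104 to 0.0479 and changed sign without control replicate 3 and without IGF2BP3 KD replicate 3. The *CDT1* to *GMNN* difference stayed between 0.223 and 0.275 and that of *CDC7* to *DBF4* between -0.354 and -0.209. Libraries with the same number did not deviate together (correlations from -0.0315 to 0.0092, with 0 of 3 control libraries closest to their own number), so the number was not taken as a pairing. With the replicate block, 2026 genes were lower and 1875 higher, and the sign-flip p of the ratios was 0.25, 0.25 and 1. Dividing by canonical transcript length moved the level per kilobase of 9 of the 10 members by more than 1 SD.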
